A study of Mus musculus with 5 samples.

Results

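Homeobox genes encode transcription factors that bind DNA through a homeodomain and assign cells to organs, body regions and neuron types. The 52 genes described here are a fixed list of LIM, Nkx and other homeobox genes that lie outside the Hox clusters, taken by symbol from 21631 protein-coding mouse genes on the chromosomes covered by the data. All 52 had their own row in the gene annotation, on 16 autosomes and none on X. The cells were epidermal progenitors of the basal layer, taken by cell sorting (Sca1-positive, RFP-high and GFP-negative) from dorsal skin of adult controls aged 71 days. The mice carried K14-RFP, a reporter of basal keratinocytes, and K10-H2B-GFP, a reporter of suprabasal keratinocytes. Chromatin immunoprecipitation used an antibody to H3K27me3 or to H2AK119ub, with 2 libraries each and 1 input library, and there was no second genotype or treatment.

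H3K27me3 is trimethylated histone H3, made by Polycomb repressive complex 2, and H2AK119ub is ubiquitinated histone H2A, made by Polycomb repressive complex 1. Both complexes bind CpG-rich promoters of silent developmental genes, and the subunits of each can recognise the mark of the other. Homeobox genes of other organs are well-known Polycomb targets, and a few of the genes here, such as Lhx2, Msx2 and Barx2, are known from hair follicle development. Each mark is represented by 1 table of intervals on mm10, without signal height, depth or replicate, so a value below is a property of these 2 lists and carries no error, and no test was made. A gene without a region may carry the mark below an unknown threshold. Expression was not measured here, and the marks do not set the sorted cell type apart. Of 5 basal epidermal genes (Krt5, Krt14, Trp63, Itga6 and Itgb4) 0 had H3K27me3 and 5 had H2AK119ub, and of 3 melanocyte genes 0 had H3K27me3 and 3 had H2AK119ub. H3K27me3 was found at 0 of 2 endothelial, 1 of 3 suprabasal, 1 of 2 immune, 3 of 3 fibroblast and 3 of 3 Merkel cell genes, and H2AK119ub at 1, 3, 1, 2 and 3 of them.

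The letters below show the 250 bases before the listed transcription start of 4 of the genes (RefSeq, GRCm38.p6, written along the gene), with each CpG in capitals. They were chosen as Meox2, the sole gene without H2AK119ub, Prrx1, whose marks stay near its start, Msx2, where H3K27me3 is split, and Lhx2, which lies deep inside both marks.

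Meox2, chr12:37108290-37108539, plus strand: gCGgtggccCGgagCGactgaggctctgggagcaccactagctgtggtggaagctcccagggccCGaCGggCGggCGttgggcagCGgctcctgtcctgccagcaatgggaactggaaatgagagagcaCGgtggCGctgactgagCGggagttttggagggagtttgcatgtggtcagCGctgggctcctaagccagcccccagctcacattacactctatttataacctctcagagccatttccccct

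Prrx1, chr1:163313651-163313900, minus strand: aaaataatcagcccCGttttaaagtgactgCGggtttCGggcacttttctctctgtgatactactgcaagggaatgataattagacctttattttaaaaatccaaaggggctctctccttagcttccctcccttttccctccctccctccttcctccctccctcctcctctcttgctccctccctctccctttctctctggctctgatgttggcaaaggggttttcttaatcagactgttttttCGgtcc

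Msx2, chr13:53472781-53473030, minus strand: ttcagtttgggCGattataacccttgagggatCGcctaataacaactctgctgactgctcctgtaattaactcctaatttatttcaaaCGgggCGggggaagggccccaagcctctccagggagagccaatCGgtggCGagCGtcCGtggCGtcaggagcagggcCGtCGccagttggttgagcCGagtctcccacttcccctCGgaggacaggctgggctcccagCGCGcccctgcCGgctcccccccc

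Lhx2, chr2:38339031-38339280, plus strand: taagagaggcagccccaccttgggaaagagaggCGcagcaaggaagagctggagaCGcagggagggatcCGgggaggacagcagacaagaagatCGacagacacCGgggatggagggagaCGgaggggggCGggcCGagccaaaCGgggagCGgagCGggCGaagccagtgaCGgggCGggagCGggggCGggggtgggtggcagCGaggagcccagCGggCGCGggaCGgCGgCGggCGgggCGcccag

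The Lhx2 window holds 25 CpGs, the Msx2 window 16, the Meox2 window 12 and the Prrx1 window 4. The count of Meox2 lies between those of Prrx1 and Msx2, which have both marks at their starts. Over the 39 genes with a listed start the count ranged from 4 to 40. Any relation of CpG count to the missing H2AK119ub at Meox2 was not tested.

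Every homeobox gene on the list met an H3K27me3 region over its gene body plus 1 kb on each side, and all but Meox2 met an H2AK119ub region. H3K27me3 was called at 52 of 52 genes, against 27.3% of all protein-coding genes, and H2AK119ub at 51 of 52, against 60.6%. Both marks together were present at 51 of 52, against 23.9% of all genes. On the autosomes alone, where all 52 lie, the shares over all genes were 24.9% for H3K27me3, 60% for H2AK119ub and 21.6% for both. H3K27me3 met 31.4% of autosomal genes over 20 kb and 19.3% of shorter ones. The 52 genes were mostly short, with a median length of 8.29 kb against 17.3 kb for all genes.

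Most of these genes lay whole inside a single region. The annotated body of 38 of the 52 genes was inside 1 H3K27me3 region, against 6.42% of all genes, and 43 were inside 1 H2AK119ub region, against 17.4%. The 38 were also among the 43, so that 38 genes (73.1%) were inside a region of each mark, against 4.69% of all genes. Of the 52 genes, 46 met 1 H3K27me3 region and 6 met more, and 46 met 1 H2AK119ub region and 5 met more. The share of all genes with a mark that met a single region was not counted, so these counts do not set the list apart. In all, the genes met 59 distinct H3K27me3 and 58 distinct H2AK119ub regions, and no pair of the genes shared a region of either mark.

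**Figure D1:**
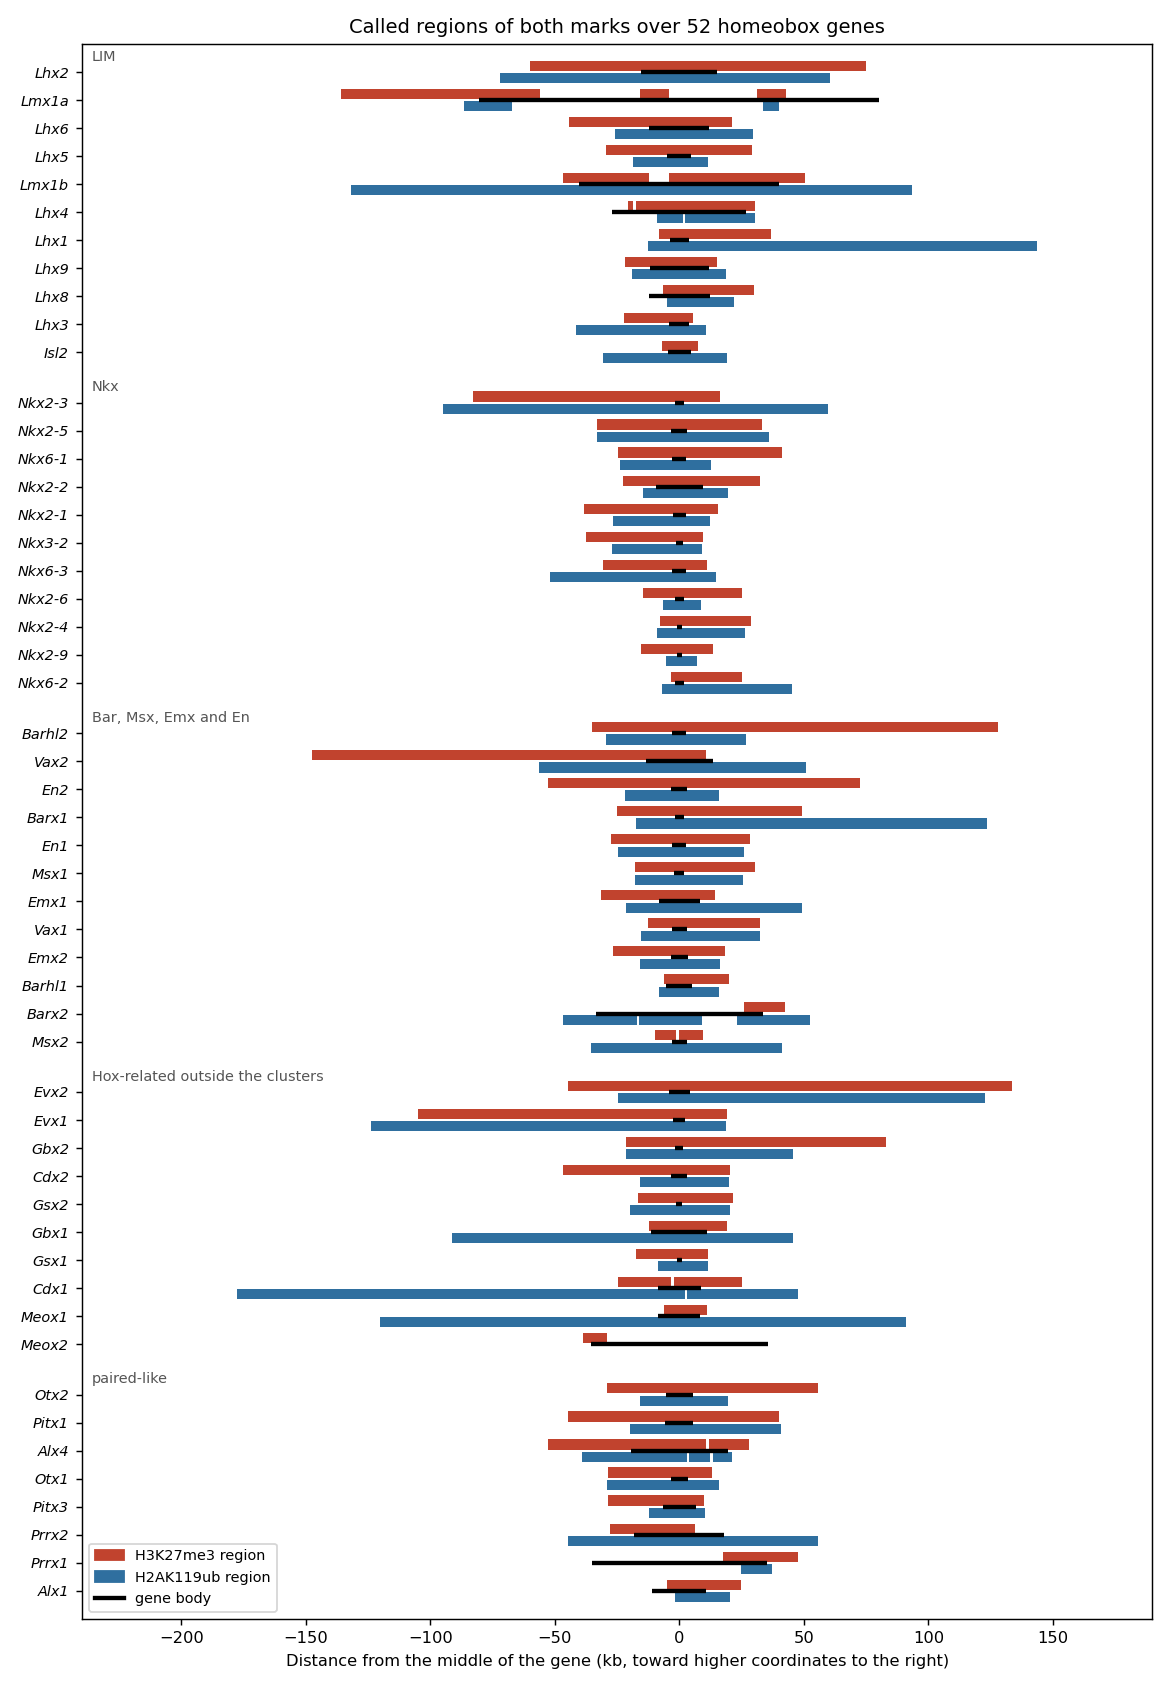
Each row is 1 gene, drawn in kb from the middle of its annotated body (black line), with H3K27me3 regions in red above it and H2AK119ub regions in blue below it, grouped by family and ordered by width of H3K27me3. Most gene bodies sit inside both colours, and Meox2, Prrx1, Barx2 and Lmx1a are long genes with H3K27me3 over less than 50% of the body.

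The regions were wide. The widest H3K27me3 region at each gene had a median of 45.3 kb (range 9.62 to 178 kb), against a median of 11.4 kb at the 5142 autosomal genes with such a region. For H2AK119ub the median was 45 kb (range 12.4 to 225 kb), against 20.1 kb at 12409 autosomal genes. Set against single regions, 38 of the 52 genes had an H3K27me3 region wider than the 95th percentile of autosomal regions (33.6 kb), and 12 had one wider than the 99th (67.9 kb). For H2AK119ub, 25 of 51 passed the 95th percentile (47.3 kb) and 11 passed the 99th (101 kb). All 52 H3K27me3 widths and all 51 H2AK119ub widths lay above the median autosomal region of their mark, which was 7.69 kb for H3K27me3 and 8.09 kb for H2AK119ub. These counts set the widest region of a gene against single regions, and the share of all genes above each cut was not counted. Over autosomal genes with the mark, the lower and upper quartiles of the widest region were 6.33 and 21.7 kb for H3K27me3. For H2AK119ub they were 9.15 and 42.9 kb, so most autosomal genes with H2AK119ub also lay above 8.09 kb.

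**Figure D2:**
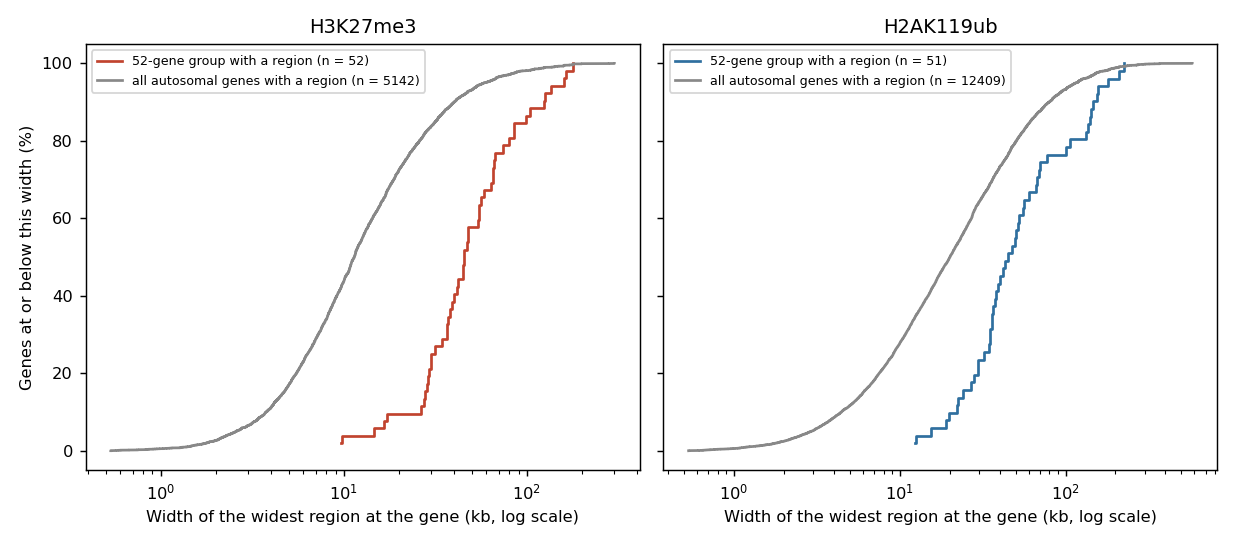
Cumulative share of genes by the width of their widest region (kb, log scale), for the homeobox genes (coloured) and all autosomal protein-coding genes with a region (grey), H3K27me3 left and H2AK119ub right. The coloured curves lie to the right, with medians of 45.3 and 45 kb against 11.4 and 20.1 kb.

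The 11 LIM genes, whose products carry LIM domains beside the homeodomain and specify neurons, pituitary, limb and hair, all had both marks. Their widest H3K27me3 region had a median of 47.9 kb and their widest H2AK119ub region 49.9 kb. Lhx2, a factor of forebrain, eye and hair follicle, had the widest H3K27me3 region of the family, 135 kb on chromosome 2 from 38294633 to 38429396, beside 133 kb of H2AK119ub, and the gene lay more than 40 kb inside each edge of both. Isl2, a motor neuron factor, had the narrowest, 14.7 kb of H3K27me3 within 49.9 kb of H2AK119ub. Lhx1, which acts in head and kidney formation, had 44.8 kb of H3K27me3 beside 156 kb of H2AK119ub, and the H2AK119ub region reached 140 kb upstream of the gene. Of that H2AK119ub sequence 94.2% was also in H3K27me3, most of it in further H3K27me3 regions away from the gene. Lmx1b, a factor of dorsal limb and kidney, had the widest H2AK119ub region of the list, 225 kb. Inside it, H3K27me3 met the gene in pieces of 34.6 and 54.6 kb. Of that H2AK119ub sequence 72.3% was in H3K27me3, part of it in further H3K27me3 regions away from the gene. The pituitary and motor neuron factors Lhx3 (27.8 kb of H3K27me3 and 52 kb of H2AK119ub) and Lhx4 (47.9 and 27.9 kb), the forebrain factors Lhx5 (58.5 and 29.8 kb), Lhx6 (65.5 and 55.6 kb) and Lhx8 (36.7 and 26.9 kb), and the gonad factor Lhx9 (37.1 and 37.6 kb) lay between.

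The 11 Nkx genes are all short, from 2.1 to 18.9 kb. Of all 37 genes of the list up to 20 kb, 34 lay inside 1 H3K27me3 region and 36 inside 1 H2AK119ub region. The body of every Nkx gene was inside 1 region of each mark. H3K27me3 ranged over 28.6 to 99 kb and H2AK119ub over 12.4 to 155 kb. Nkx2-3, a spleen and gut factor, was widest for both marks, with 99 kb of H3K27me3 and 155 kb of H2AK119ub. Nkx2-5, the cardiac factor, had 66.2 kb of H3K27me3 beside 69.1 kb of H2AK119ub, whose lower edges were 21 bp apart. Nkx2-9, a ventral neural tube factor, had the narrowest H2AK119ub region of all 51 genes, 12.4 kb, within 28.8 kb of H3K27me3. Nkx2-1, the lung and thyroid factor, lies 74.5 kb from Nkx2-9 and had its own regions of 54 kb (H3K27me3) and 38.9 kb (H2AK119ub). Of the sequence between these neighbours 36.7% was in H3K27me3 and 18.7% in H2AK119ub. The neighbours Nkx2-2, a ventral neural tube and pancreas factor (54.8 kb of H3K27me3 and 34.4 kb of H2AK119ub), and Nkx2-4 (36.4 and 35.2 kb) are 91 kb apart and likewise had separate regions. The remaining widths were 46.9 kb of H3K27me3 and 36.2 kb of H2AK119ub at the skeletal factor Nkx3-2, 65.6 and 36.6 kb at the beta cell factor Nkx6-1, 28.6 and 52.2 kb at the glial factor Nkx6-2, 41.6 and 66.5 kb at the stomach factor Nkx6-3, and 39.8 and 15.5 kb at Nkx2-6.

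Among the 12 Bar, Msx, Emx, En and Vax genes, H3K27me3 spread furthest at the sensory neuron factor Barhl2 and the eye factor Vax2. At Barhl2 the H3K27me3 region was 163 kb wide and the H2AK119ub region 56.1 kb. Vax2 had 158 kb of H3K27me3, which ended 2.9 kb before the higher-coordinate end of the gene, and 107 kb of H2AK119ub. The Vax2 regions also met Cd207, the langerin gene of Langerhans cells, and the H3K27me3 region met the lectin gene Clec4f. En1 and En2, which pattern the midbrain and, for En1, ventral skin and limb, differed in width: 56.1 kb of H3K27me3 and 50.5 kb of H2AK119ub at En1, and 125 and 37.9 kb at En2. Msx1, a tooth and palate factor, had 47.9 kb of H3K27me3 beside 43.3 kb of H2AK119ub, with lower edges 13 bp apart. Barx1, the stomach factor, had 74.2 kb of H3K27me3 beside 141 kb of H2AK119ub. The cortical factors Emx1 (45.5 and 70.5 kb) and Emx2 (44.8 and 32.2 kb), the optic nerve factor Vax1 (45.1 and 47.7 kb) and the sensory neuron factor Barhl1 (26.3 and 24 kb) lay whole inside both marks. Msx2 and Barx2 did not, and are described with the exceptions.

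Of the 10 genes related to Hox genes but outside the clusters, Evx1 and Evx2, factors of spinal interneurons and posterior body, adjoin a Hox cluster and lay in its regions. Evx2 shared its 178 kb H3K27me3 and 147 kb H2AK119ub regions with 9 Hoxd genes. Evx1 shared its 124 kb H3K27me3 region with 6 Hoxa genes and its 142 kb H2AK119ub region with 8. The hindbrain-border factor Gbx2 had 104 kb of H3K27me3 beside 66.9 kb of H2AK119ub without any Hox gene. Its paralogue Gbx1 showed the opposite order, with 31.4 kb of H3K27me3 inside 137 kb of H2AK119ub. Of that H2AK119ub sequence 38.2% was in H3K27me3, part of it in further H3K27me3 regions away from the gene. The intestinal factors differed likewise, and Cdx2 had 67 kb of H3K27me3 beside 35.8 kb of H2AK119ub. Cdx1 met H3K27me3 in pieces of 21.2 and 27.3 kb and H2AK119ub in pieces of 180 and 44.5 kb. Of the H2AK119ub sequence at Cdx1 35.5% was in H3K27me3, part of it in further H3K27me3 regions away from the gene. The H3K27me3 region of Cdx2 also met Pdx1, the pancreas factor. The forebrain factors Gsx1 (29.1 kb of H3K27me3 and 19.9 kb of H2AK119ub) and Gsx2 (38 and 40 kb) lay whole inside both.

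The 8 paired-like genes all had both marks, and 4 lay whole inside a region of each. Otx2, a forebrain and eye factor, had 84.9 kb of H3K27me3 beside 35 kb of H2AK119ub, and Otx1 had 41.9 and 45 kb. Pitx1, the hindlimb factor, had 84.6 kb of H3K27me3 beside 60.3 kb of H2AK119ub, and the lens factor Pitx3 had 38.7 and 22.4 kb. The remaining 4, Prrx1, Prrx2, Alx1 and Alx4, factors of limb and facial mesenchyme, were covered in part by H3K27me3, and all of these but Prrx2 in part by H2AK119ub.

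The marks differed in which was wider, gene by gene. H3K27me3 was the wider at 30 of the 51 genes with both marks (58.8%), against 32% of the 4472 autosomal genes with both, and H2AK119ub was the wider at 21. Among 57 further developmental homeobox genes with both marks, described below, the share was 56.1%. H3K27me3 was more than 2 times as wide at 7 genes, among them Lmx1a, En2, Barhl2 and Otx2, and H2AK119ub was more than 2 times as wide at 8, Lhx1, Lmx1b, Isl2, Msx2, Gbx1, Meox1, Cdx1 and Prrx2. Across the 51 genes the widths were weakly related (Spearman's rho 0.25, a description across genes that share both lists). Of the H2AK119ub sequence at these genes, a median of 97.9% was also in H3K27me3, against 49.6% over autosomal genes with both marks. H2AK119ub lay wholly inside H3K27me3 at 21 genes (41.2%), against 14% of those autosomal genes. Of the H3K27me3 sequence, a median of 90.5% was also in H2AK119ub, against 95.4%, and 14 genes (27.5%) had it wholly inside, against 42%. At 8 genes less than 60% of the H2AK119ub sequence was in H3K27me3, namely Isl2, Emx1, Nkx6-2, Barx2, Gbx1, Meox1, Cdx1 and Prrx2. At 5 genes less than 60% of the H3K27me3 sequence was in H2AK119ub, namely Prrx1, Lmx1a, Nkx2-9, Nkx2-6 and Otx2. The shares of autosomal genes that pass the cuts of 2 times and 60% were not counted. Widths compare the widest single region of each mark at the gene, and further regions can lie beside it. At En2 and Barhl2, 64.5% and 61.9% of the H3K27me3 sequence was in H2AK119ub. At Lhx1, 94.2% of the H2AK119ub sequence was in H3K27me3. Without knowledge of the calling thresholds a wider region does not show more of a mark.

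**Figure D3:**
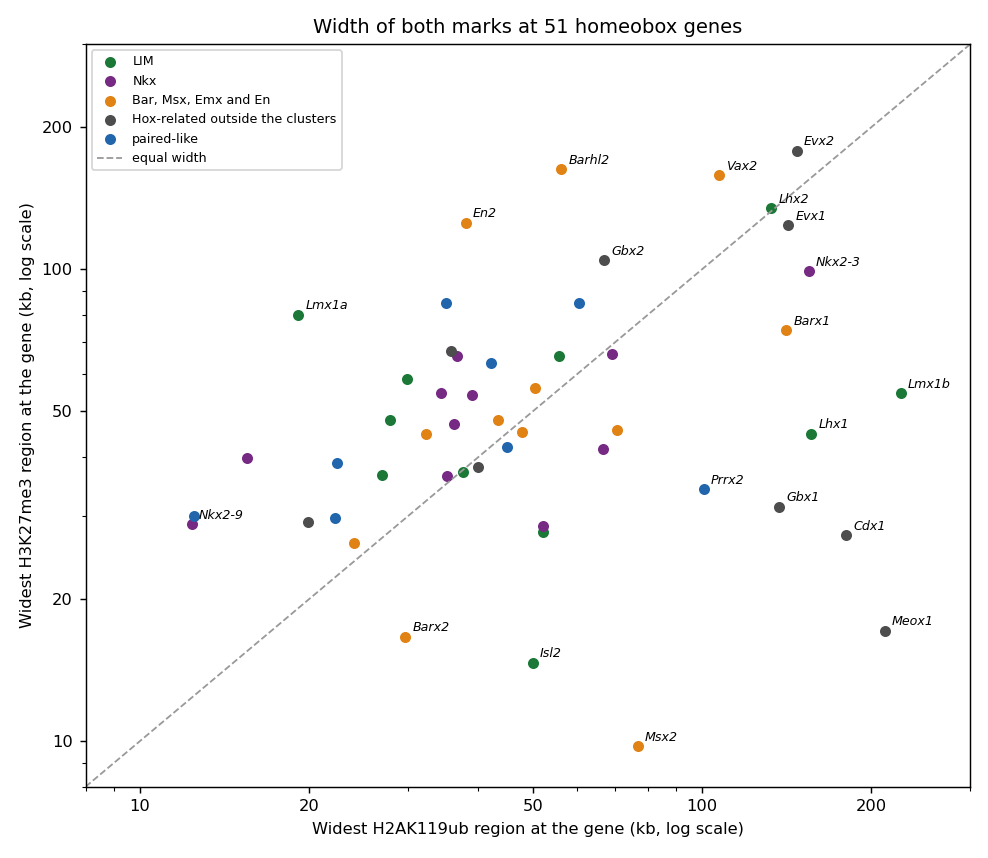
Width of the widest H3K27me3 region (vertical, kb, log scale) against that of the widest H2AK119ub region (horizontal, kb, log scale) at the 51 genes with both, coloured by family, with a dashed line at equal width. Of the points, 30 lie above the line and 21 below it, and Meox1, Msx2 and Cdx1 lie furthest below.

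The exceptions were mostly long genes. H3K27me3 left part of the body uncovered at 14 genes and H2AK119ub at 9, and those 9 were among the 14. Of the 37 genes up to 20 kb, 34 lay inside 1 H3K27me3 region and 36 inside 1 H2AK119ub region. Of the 15 longer genes, 4 lay inside 1 H3K27me3 region and 7 inside 1 H2AK119ub region. Over all autosomal genes the shares were 7.20% (H3K27me3) and 26.2% (H2AK119ub) up to 20 kb, and 0.439% and 5.14% above. Gene length and the covered percentage of the body ran in opposite directions (Spearman's rho -0.67 for H3K27me3 and -0.58 for H2AK119ub over the 52 genes), whereas length and width of the widest region were hardly related (-0.08 for H3K27me3). These coefficients are descriptions across genes.

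Meox2, a factor of somite, muscle and vessel development, stood furthest from the rest. It had 1 H3K27me3 region of 9.62 kb, the narrowest of the 52 by widest region, on chromosome 12 from 37105283 to 37114904. This region spans the listed start of the 71 kb gene and covers 8.97% of its body. The nearest H2AK119ub region lies 541 kb away and is 3.62 kb wide. At the other Meox gene, Meox1, a somite factor, the H2AK119ub region was the wider. It had 17.1 kb of H3K27me3 over 86.4% of the gene, inside 211 kb of H2AK119ub that also met Dhx8, Etv4, Sost and Dusp3. Of that H2AK119ub sequence 57.6% was in H3K27me3, most of it in further H3K27me3 regions away from the gene.

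Prrx1, a factor of limb mesenchyme and fibroblasts, had 29.9 kb of H3K27me3 beside 12.5 kb of H2AK119ub on chromosome 1, which cover its listed start and 24.8% and 14.8% of its 70 kb body. Its paralogue Prrx2 had 34.2 kb of H3K27me3 over the first 67.8% of the body and 101 kb of H2AK119ub over all of it. Lmx1a, a roof plate and midbrain factor and at 161 kb the longest gene of the list, had 80.1 kb of H3K27me3 across its start, of which 55.7 kb lie upstream, and pieces of 11.4 and 11.5 kb further in. Its H2AK119ub formed pieces of 19.1 kb at the start and 6.56 kb further in, and the marks covered 29.5% (H3K27me3) and 12.2% (H2AK119ub) of the body. Barx2, a factor of muscle and hair follicle, had H3K27me3 over 11.4% of the body, in 16.7 kb at the higher-coordinate end, while H2AK119ub in pieces of 29.7, 25.2 and 29.4 kb covered 77.5%. Barx2 was thus the only one of the 4 genes under 50% for H3K27me3 that was over 50% for H2AK119ub.

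Msx2, a factor of skull and hair follicle, is 5.90 kb long and so short for an exception. It lay inside 76.8 kb of H2AK119ub, and the H3K27me3 that met it consisted of 8.31 and 9.74 kb pieces with a gap of 1.16 kb inside the gene. Of that H2AK119ub sequence 64.1% was in H3K27me3, most of it in further H3K27me3 regions away from the gene. Its widest H3K27me3 region was, after that of Meox2, the narrowest of the list. Alx1, a facial cartilage factor, was covered over 73.2% by H3K27me3 and 58.9% by H2AK119ub, Lhx8 over 77.6 and 70.9%, and Lhx4 over 85.9 and 64.3%. Alx4, a limb and skull factor, was covered over 96.8% by H3K27me3 and 94.1% by H2AK119ub in several pieces. The other incomplete genes were Vax2 (89.3% by H3K27me3), Lmx1b (90.3%) and Cdx1 (93.3%, and 96.2% by H2AK119ub).

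**Figure D4:**
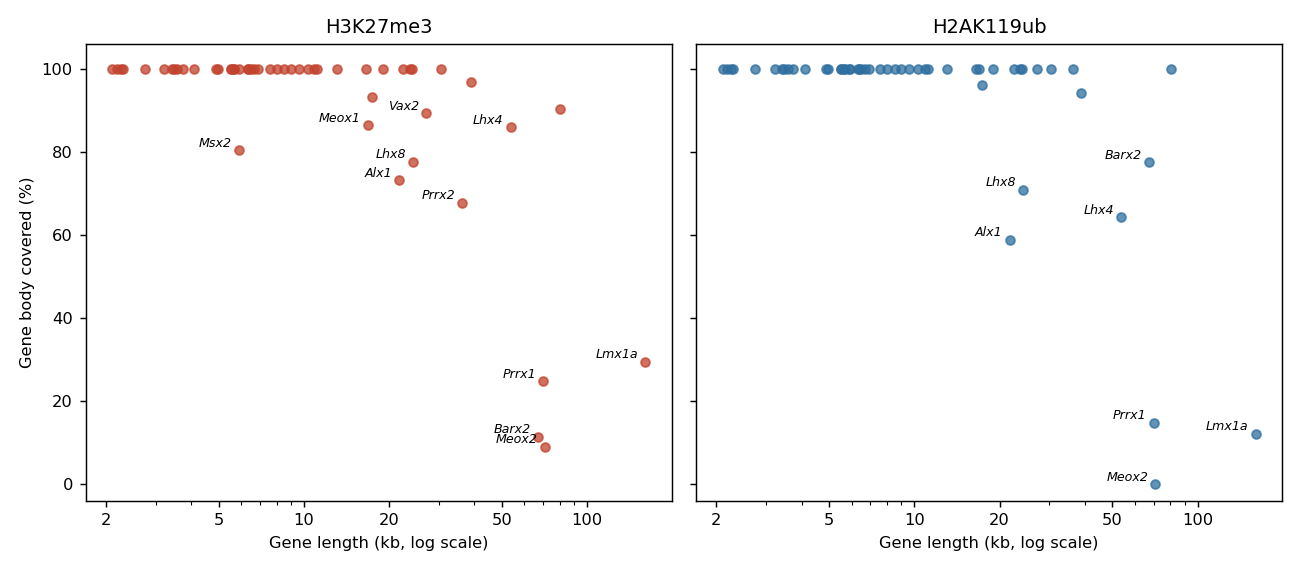
Percentage of the gene body covered by H3K27me3 (left) and by H2AK119ub (right) against gene length (kb, log scale), 1 point per gene for all 52, with names where coverage is under 90%. Genes up to 20 kb lie at or near 100% except Msx2 and Meox1 for H3K27me3, and the lowest points are genes of 67 kb or longer.

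Where the annotation gave a start, H3K27me3 covered it at every gene and H2AK119ub at all but Meox2. The promoter table listed 39 of the 52 genes, and the listed start lay inside H3K27me3 at 39 of 39, against 19% of 17274 protein-coding genes. It lay inside H2AK119ub at 38 of 39, against 38.2%, and inside both at 38 of 39, against 15.8%. Among these 39 are 6 genes whose H3K27me3 stops short of the other end, Lhx4, Lhx8, Lmx1a, Meox2, Prrx1 and Prrx2. They were picked by that uncovered end, and every listed start was covered, so this pattern follows from the selection. The share over all partly covered genes was not counted, and the 13 genes without a listed start could not be included. H3K27me3 reached further upstream than downstream of the annotated body at 25 of the 39 genes (64.1%), against 71.5% of 3905 listed autosomal genes with the mark, with medians of 22.9 kb upstream and 14.4 kb downstream. For H2AK119ub this held at 23 of 38 (60.5%), against 58.6% of 9764, with medians of 17.1 and 15.2 kb. In the 250 bases before the start, the 39 promoters had a median of 15 CpGs (range 4 to 40) and 61.6% G and C, against 10 CpGs and 55.6% over all listed genes. Over all genes the median was 12 CpGs where the start lay in both marks, 11 in H2AK119ub alone, 5 in H3K27me3 alone and 9 in neither. The letters TAATTA, a core that many homeodomains bind and the same on both strands, occurred in 3 of the 39 (7.69%), at Prrx1, Msx2 and Otx2, against 4.38% of all promoters of this length.

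Other homeobox genes were set beside these. Of 61 further developmental homeobox genes, among them the Dlx and Irx families, 57 (93.4%) had H3K27me3 and 60 (98.4%) had H2AK119ub. The body of 47 of them (77%) was inside 1 H3K27me3 region and that of 50 (82%) inside 1 H2AK119ub region. These shares were close to the 73.1% and 82.7% of the 52 genes, so lying whole inside a region was not particular to the list. Irx2, Irx5 and Six5 had H2AK119ub alone and the photoreceptor factor Crx had neither. The widest regions at the further developmental genes had medians of 42.2 kb (H3K27me3) and 43 kb (H2AK119ub). H3K27me3 was the wider at 32 of the 57 with both marks, and a median of 95.2% of their H2AK119ub sequence was in H3K27me3. In these traits too they were close to the 52 genes. Of the 39 Hox genes, 29 (74.4%) had H3K27me3 and all 39 had H2AK119ub, and 24 lay inside 1 H3K27me3 region and 36 inside 1 H2AK119ub region. Of 41 TALE, CUT, zinc finger and other atypical homeobox genes, many of them used in a wide range of tissues, 20 (48.8%) had H3K27me3 and 35 (85.4%) had H2AK119ub. These 41 are long, with a median of 76.1 kb, and 2 lay inside 1 H3K27me3 region, against 38 of the 52. Neither mark was found at Tgif1, Adnp, Adnp2, Zhx1, Zhx3 and Hmbox1. The differences between lists were not tested.

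**Figure D5:**
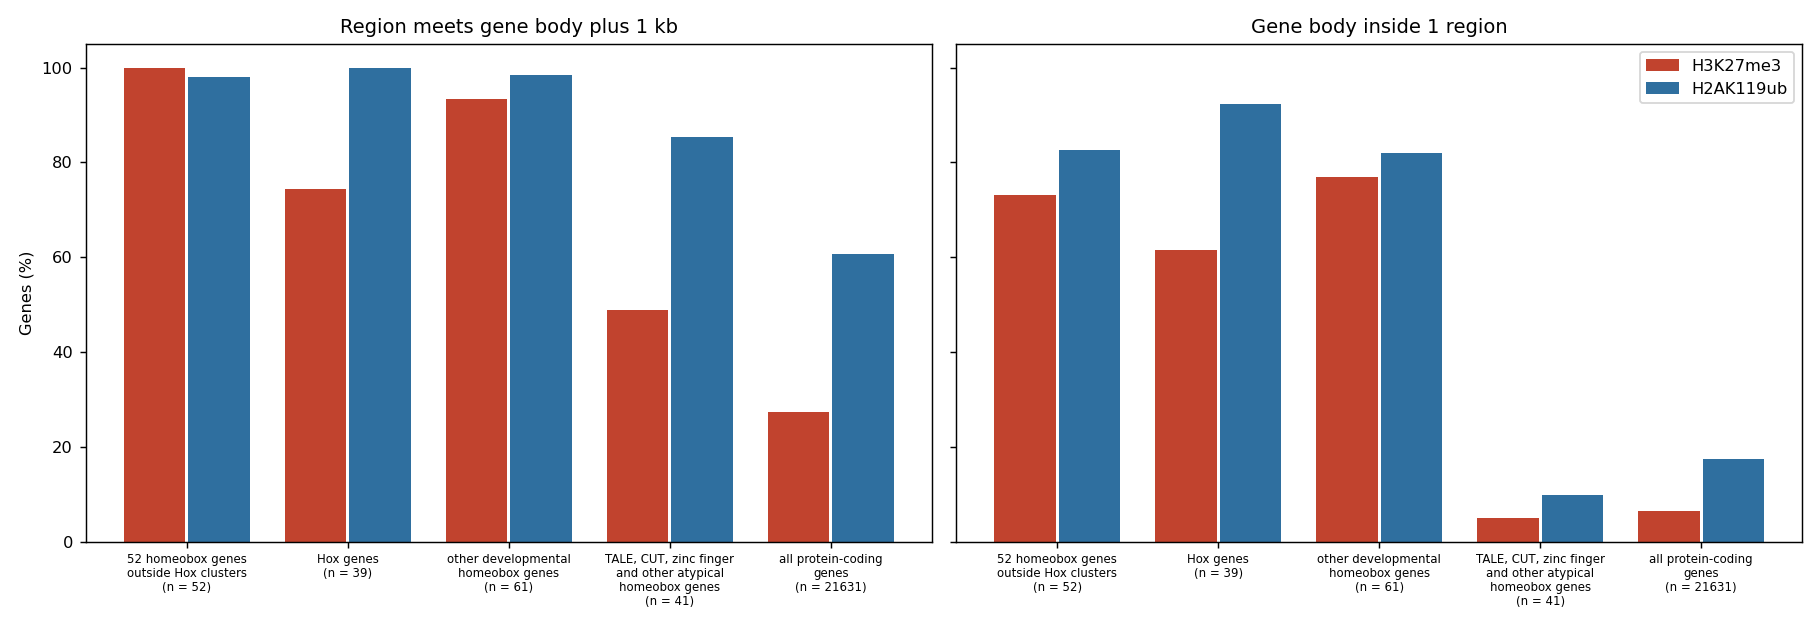
Percentage of genes in each homeobox list and over all protein-coding genes that met a region over the body plus 1 kb (left) and whose body was inside 1 region (right), H3K27me3 in red and H2AK119ub in blue. The 52 genes reach 100 and 98.1% on the left, against 27.3 and 60.6% over all genes.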

How the data were processed

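Per the labels' protocols, each library started from 5 ng DNA and gave single-end reads of 75 nt. For each mark the authors deposited a region list (33155 for H2AK119ub and 15102 for H3K27me3), and the deposited columns other than the chromosome are positions in bp per the file headers, with no score. Per the submitters' processing notes, Bowtie2 2.3.3.1, SAMtools 1.9 and mm10 were used, in roles not stated. Peak caller, thresholds, use of the input and pooling of the 2 libraries were not given in the sources used here, and depth is unknown. A threshold sets region number, width and gaps.

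Starts were taken as 0-based and made 1-based, which is uncertain by 1 bp. Genes came from RefSeq GRCm38.p6 (the mm10 build), which gives ends without strand. Strand and start came from the RefSeq promoter table, which listed 39 of the 52 genes (the first entry per gene was used). A gene had a mark when a region shared at least 1 bp with its body plus 1 kb. Widths are of the widest such region. Covered percentages refer to the body alone. Counts and medians stand beside all protein-coding genes, without tests, intervals or replicates. The overlap code was checked on simulated regions (Python 3.11.15, pandas 2.3.3). Members, families and comparison lists were chosen with earlier results of these data known. Of 62 further developmental genes, 1 had no row of its own. Some genes of the comparison lists are not reported here. The text names every gene of the list, by a rule that singles out genes lacking a mark, partly covered, sharing regions, or widest and narrowest in a family. The 4 promoters shown were picked with the values known.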

Additional observations from a re-analysis of the deposited data

How the results depend on the processing

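No paired analysis was possible because each mark has 1 list that names no replicate, and leaving out a library was not possible for the same reason. The counts of genes with H3K27me3 (52), H2AK119ub (51) and both (51) were unchanged with windows of 0 bp or 5 kb, gene ends alone, an overlap of at least 500 bp, regions of 5 kb or more, lists of equal size and regions within 3 kb joined, and the gene without H2AK119ub was Meox2 in each. At the listed start, which was known for 39 genes, the counts were 39, 38 and 38. Without Evx1 and Evx2, an alternative chosen after seeing the data, they were 50, 49 and 49 of 50. Genes whose body was inside 1 region numbered 38 for H3K27me3 and 43 for H2AK119ub. They were 41 and 45 with joined regions, 37 and 43 with 1 kb more on each side, and 48 and 49 where coverage of at least 50% counted.

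Median widths depended most on joining regions within 3 kb, which by construction widens them. The H3K27me3 median was 65.5 kb with joined regions, 46.2 kb with a window of 5 kb, 46.9 kb at the listed start and 45 kb without Evx1 and Evx2, against 45.3 kb. The H2AK119ub median was 55.7 kb with joined regions, 45.5 kb at the listed start and 43.3 kb without Evx1 and Evx2, against 45 kb. With joined regions the widths and gaps given per gene would differ. The lists hold no score, so no stricter threshold than width could be applied.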

Other observations

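The widest H3K27me3 region met no other protein-coding gene at 30 of 52 homeobox genes (57.7%), against 72.2% of autosomal genes with that mark. For H2AK119ub this held at 26 of 51 (51%), against 49.8%. Genes of other kinds that lay in part or whole in the same H3K27me3 region included Rxrg, a retinoid receptor, beside Lmx1a, Pdgfrb, a growth factor receptor, beside Cdx1, Elovl3, a fatty acid elongase, beside Pitx3, and Ank1, an ankyrin, beside Nkx6-3. The widest H2AK119ub region at Gbx1 met 6 other genes, Slc4a2, Fastk, Tmub1, Agap3, Asb10 and Iqca1l, whereas its H3K27me3 region met Asb10 alone.

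The edges of the marks fell together about as often as over autosomal genes. At the 38 genes inside 1 region of each mark, 12 of 76 edges (15.8%) lay within 1 kb of the edge of the other mark, against 13.7% over the 582 distinct autosomal region pairs that hold a whole gene. Both edges were so close at 0 of the 38, against 2.75% of those pairs. The closest edges were 13 bp apart at Msx1, 21 bp at Nkx2-5 and 37 bp at Gbx2. The H3K27me3 region that held the gene extended past the H2AK119ub region on both sides, by any distance, at 16 of the 38 genes (42.1%). Of those pairs 23.7% did so. The H2AK119ub region extended past the H3K27me3 region at 9 (23.7%), against 45.5%, and the regions were staggered at 13 (34.2%), against 30.8%. Further regions beyond these were not considered. Among the 16, 96.1% of the H3K27me3 sequence at Nkx6-1 was in H2AK119ub. Among the 9, 94.2% of the H2AK119ub sequence at Lhx1 was in H3K27me3.

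Several splits of H3K27me3 were of similar length. The gap was 1.16 kb at Msx2, 1.16 kb at Cdx1, 1.17 kb at Lhx4 and 1.24 kb at Alx4. Over the whole H3K27me3 list, 1281 of 15082 gaps (8.49%) were under 1.3 kb, and over the H2AK119ub list 5854 of 33135 (17.7%). The part of the calling in these gaps was not tested.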
